A study of Homo sapiens with 3 samples.

Results

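The gene-dense end of the short arm of chromosome 19, band 19p13.3, was taken as the first 7 Mb of the chromosome in the hg19 build, from position 1 to 7000000. Its members were all peaks of histone H3 trimethylated at lysine 36 (H3K36me3) that overlapped this stretch in either of 2 deposited lists. The list from cells given dihydrotestosterone (DHT) put 561 of its 131798 peaks on nuclear chromosomes there, and the list from untreated cells 428 of 117564. All of them entered every count, and none crossed the inner border of the stretch. Chromatin immunoprecipitation and sequencing (ChIP-seq) was done in LNCaP cells, a prostate cancer line that responds to androgen, kept in RPMI with serum. One library came from cells given 100 nM DHT, a strong androgen derived from testosterone, over 4 h in medium described as red-free, and 1 from cells labelled as having no treatment. The remaining library, an input without antibody, was not analysed here. The DHT cells differ from the untreated ones in hormone and, as far as the labels say, in medium, so hormone and medium cannot be told apart.

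H3K36me3 is laid down by SETD2 travelling with elongating RNA polymerase II, so it marks the bodies of genes that are being transcribed and is typically low at their starts. It is known for forming broad domains that thicken towards gene ends, for guiding DNA methylation into gene bodies and for restraining initiation inside them. Band 19p13.3 is known for short, closely packed genes, many of them in use in most cells.

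The genes of the band can be named in order, but not laid onto the peaks, since the only gene table at hand was of the GRCh38.p14 build. All 65 genes in 5 lists drawn up for the band were found on chromosome 19 in that RefSeq table. From the end inward, the first broadly used ones were CDC34, a ubiquitin-conjugating enzyme, POLRMT, the mitochondrial RNA polymerase, PTBP1, a splicing regulator, and MED16, a Mediator subunit. They were followed by POLR2E, a shared RNA polymerase subunit, and GPX4, which reduces lipid peroxides, with STK11, the tumour suppressor kinase, next but 1 after GPX4. Further in came RPS15, MBD3, TCF3 and DOT1L, the H3K79 methyltransferase. EEF2, the translation elongation factor, followed beside PIAS4, a SUMO ligase that binds the androgen receptor. The chromatin genes CHAF1A, UHRF1 and KDM4B, a histone demethylase and androgen receptor coactivator, lay farther in, and KHSRP, CD70, VAV1 and ADGRE1 at its inner end. Genes restricted to other tissues were interspersed, such as AZU1, PRTN3 and ELANE of neutrophil granules. The zinc finger genes ZNF554, ZNF555, ZNF556, ZNF57 and ZNF77 were direct neighbours of each other. No gene was given a value.

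More of 19p13.3 was covered by H3K36me3 peaks after DHT than in untreated cells. Peaks covered 799 kb after DHT, or 11.4% of the stretch, against 545 kb, or 7.79%, in untreated cells. The ratio of DHT over untreated covered length was 1.46, with a 95% counting interval of 1.24 to 1.73. In the rest of the genome the same 2 libraries gave a ratio of 1.02 (1.01 to 1.03), with 2.11% covered after DHT and 2.07% in untreated cells. The ratio in 19p13.3 was thus 1.43 times that of the rest of the genome (1.21 to 1.69). Peak number differed less than covered length, at 1.31 times as many after DHT (exact counting interval 1.15 to 1.49), against 1.12 times in the rest of the genome.

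With 1 library per condition no p-value was computed, and these intervals cover counting error only, treating peaks as independent although neighbours are not. The stretch was chosen with its higher coverage after DHT already known, read numbers are not stated, and how far 2 libraries of the same cells would differ cannot be read from these data.

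The DHT over untreated ratio was larger in 19p13.3 than on the rest of its chromosome, while counting error did not separate it from the ends of chromosomes 16 and 11. On the rest of chromosome 19 the covered length ratio was 1.09 (1.02 to 1.16), and in the adjoining stretch from 7 to 14 Mb it was 1.13 (0.9699 to 1.31). The ratio in 19p13.3 was 1.35 times that of the rest of the chromosome (1.13 to 1.61) and 1.298 times that of the adjoining stretch (1.04 to 1.63). The first 7 Mb of chromosome 16 had a ratio of 1.37 (1.16 to 1.62), with 8.87% covered after DHT and 6.48% in untreated cells. The first 7 Mb of chromosome 11 had a ratio of 1.27 (1.05 to 1.55), with 5.83% covered after DHT and 4.57% in untreated cells. Set against these ends, 19p13.3 stood at 1.07 times (0.846 to 1.36) the chromosome 16 ratio and 1.15 times (0.890 to 1.48) the chromosome 11 ratio. Both intervals included 1. The ratio of peak numbers was 1.305 (1.147 to 1.486) on the chromosome 16 end, close to that of 19p13.3. It was 1.16 (1.01 to 1.33) on the chromosome 11 end and 1.21 (1.15 to 1.26) on the rest of chromosome 19.

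Along the 7 Mb every megabase was more covered after DHT. The smallest ratio was in the fifth megabase, where 10.9% was covered after DHT and 8.76% in untreated cells, a ratio of 1.24 (0.800 to 1.93). The largest was in the fourth, a ratio of 1.88 (1.20 to 2.95). Only in the first and the fourth megabase did the counting interval lie above 1. The last megabase was the least covered in both libraries, at 7.30% after DHT and 4.52% in untreated cells. Peaks of at least 2 kb were more numerous after DHT in all 7, with 22 against 8 in the fourth megabase and 22 against 20 in the sixth.

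In windows of 100 kb, covered and nearly empty stretches alternated, and their order along the chromosome was much the same in both libraries. Median coverage over the 70 windows was 11.97% after DHT, with a highest value of 30.1%, against a median of 8.24% and a highest value of 22.4% in untreated cells. At least 10% was covered in 40 windows after DHT and in 27 windows of untreated cells, of which 25 were the same windows. Across the 70 windows the covered percentages of the libraries went together (Pearson r = 0.857, Spearman rho = 0.834), as a description of windows that share a chromosome and are not independent.

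**Figure D1:**
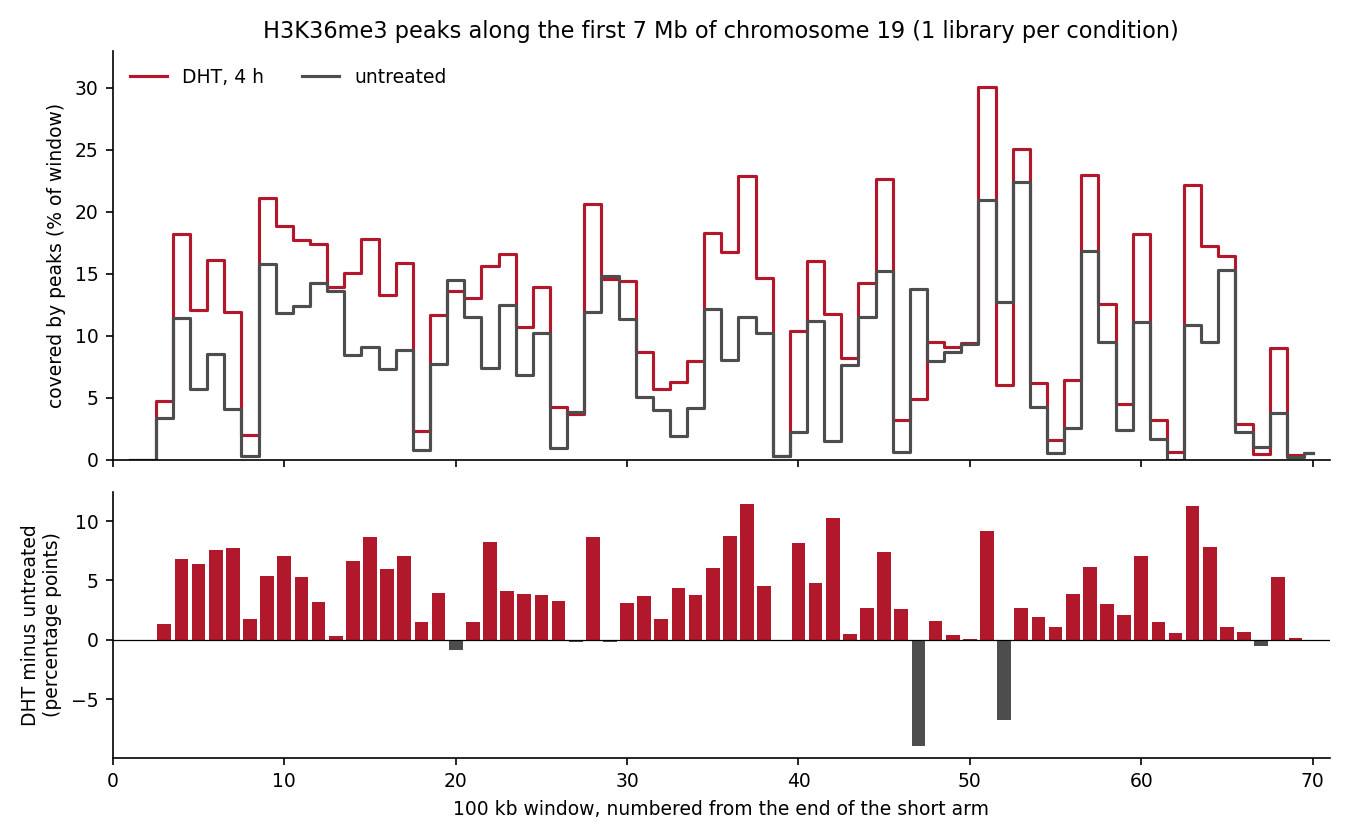
Covered percent (upper panel) of 70 consecutive windows of 100 kb, numbered from the chromosome end, after DHT (red) and in untreated cells (grey), and the DHT minus untreated difference in percentage points (lower panel), with 1 library each and no error bars. The DHT line lies above the untreated one in 61 windows and below it in 7.

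The most covered window lay in the sixth megabase in both libraries, but was not the same one. After DHT it was window 51, counted from the chromosome end, from 5000001 to 5100000, with 30.1% after DHT and 20.9% in untreated cells. In untreated cells it was window 53, from 5200001 to 5300000, with 25.05% after DHT and 22.4% in untreated cells. Window 57, from 5600001 to 5700000, followed in both, with 22.9% after DHT and 16.8% in untreated cells, and it held the most peaks of the stretch, 24 after DHT and 15 in untreated cells. Between these strongly covered windows lay thin ones, such as window 55, with 1.62% after DHT and 0.520% in untreated cells.

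Some stretches held few or no peaks of either library. The first 2 windows held no peak at all, and the first peak began at 279333 after DHT and at 279338 in untreated cells. The next longest stretch without a peak of either library ran for 64455 bp from 3838206 to 3902660. Others of 61428 bp, 58959 bp and 57933 bp began at 6925013, 5714240 and 4587814. Under 2% was covered in 8 windows after DHT and in 15 windows of untreated cells, and all 8 were among the 15. Window 62, from 6100001 to 6200000, was the 1 further window without an untreated peak, and it held 2 DHT peaks of 305 and 294 bp.

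Nearly all windows leaned the same way. Coverage was higher after DHT in 61 of the 68 windows with a peak and lower in 7, whereas 50.7% of the 19726 windows with a peak in the whole genome were higher after DHT and 49.2% lower. The median difference was 3.49 percentage points in 19p13.3 and 0 in the rest of the genome. A difference of at least 5 points upward was met by 25 of the 70 windows, against 1.07% of all 30940 windows of the genome. Downward it was met by 2 of the 70, against 0.339% of all windows. At 10 points 3 of the 70 were past it upward (4.29%), against 0.116% of all windows, and 0 downward, against 0.00646%. At least 1.5-fold more covered after DHT, with 10 kb covered in either library, were 20 of the 70 (28.6%), against 1.02% of all windows. At least 1.5-fold less covered were 2 of the 70 (2.86%), against 0.381%. These shares over all windows include many too thinly covered to be called, as 21806 of 30870 elsewhere had under 2% in both libraries. Of the windows of 19p13.3 with 10 kb covered, 47.6% of 42 were past 1.5-fold upward and 4.76% downward. In the rest of the genome these shares were 13.7% of 2153 and 5.39%. The chromosome 16 end had 41.9% of 31 upward, and the chromosome 11 end 36.8% of 19. Single windows hold few peaks, and the counting interval of the difference lay above 0 in just 1 of the 70, window 26, from 2500001 to 2600000. That window had 9 peaks covering 4.22% after DHT and 2 covering 0.917% in untreated cells. Its widest peak was 558 bp, and the interval widens with peak width. In window 42, with a difference of 10.2 points, it ran from -1.64 to 22.1. The share of such windows over the genome was not computed, so window 26 is not set apart by this.

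**Figure D2:**
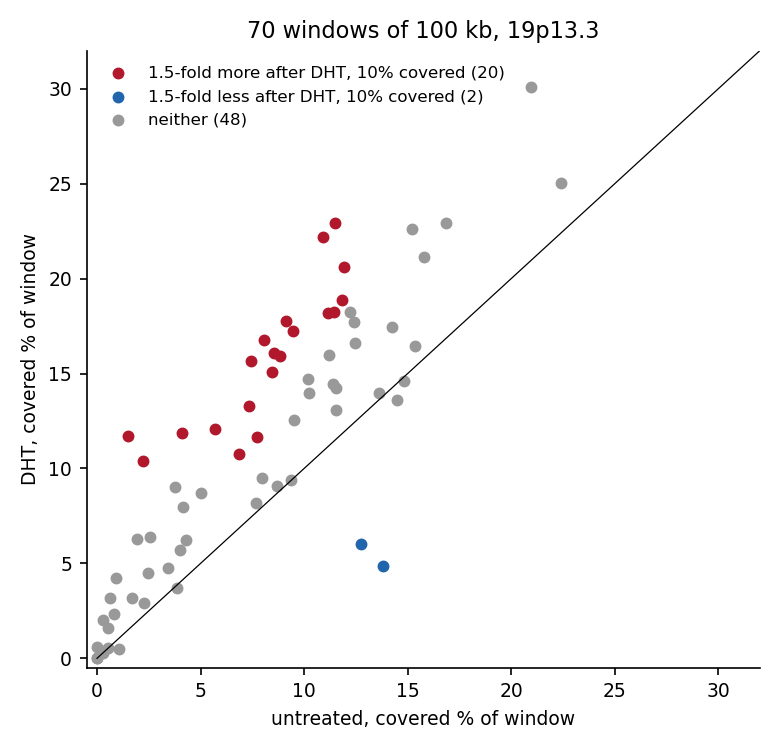
Covered percent after DHT (vertical axis) against untreated cells (horizontal axis) for the 70 windows of 100 kb, 1 point each, with the line of equal coverage. Red points (20) have at least 1.5-fold more coverage after DHT, blue points (2) at least 1.5-fold less, with 10 kb or more covered in either library. Most points lie above the line at every level of coverage.

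The difference was spread over the stretch and did not rest on a few windows. Windows higher after DHT summed to 271 kb more covered sequence, and 16 of the 61 held 50% of it. Leaving out the 10 windows with the largest differences left a ratio of 1.36, and leaving out 20 left 1.26. These windows were removed for being highest, which lowers the ratio by construction.

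Over the rest of the genome as a whole, windows of the same coverage leaned less this way. Among windows with 5 to 10% covered on average over both libraries, 14 of 16 in 19p13.3 were higher after DHT (87.5%), against 47.1% of 3066 elsewhere. At 10 to 15% they were 19 of 21 (90.5%), against 52.1% of 1214 elsewhere, and the ratio of covered length was 1.46 against 1.04. Above 15% all 13 were higher, against 56.8% of 500 elsewhere, with ratios of 1.44 and 1.06. The thinly covered windows of 19p13.3, up to 2% on average, had the largest ratio, 2.60, but it rests on 11.5 kb after DHT and 4.41 kb in untreated cells. Without this split by coverage, the other stretches compared also had more windows higher than lower after DHT. On the first 7 Mb of chromosome 16, 42 of 54 windows with a peak were higher after DHT (77.8%), and 13 were past 1.5-fold upward and 0 downward. On those of chromosome 11 it was 37 of 62 (59.7%), with 7 past 1.5-fold upward and 0 downward, and on the rest of chromosome 19 it was 60.2%, with 30 upward and 9 downward. A difference between these and 19p13.3 was not tested.

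The 3 windows with the largest positive differences were made up in different ways. Window 37, from 3600001 to 3700000, had the largest difference, with 22.9% after DHT and 11.5% in untreated cells. It held fewer peaks after DHT, 12 against 14, and they were wider at 8 of the 10 places marked in both libraries, with overlapping peaks of a library summed. A DHT peak of 4869 bp, from 3660299 to 3665167, spanned 2 untreated peaks of 1524 and 1306 bp. Another of 3037 bp, from 3610140 to 3613176, held an untreated peak of 887 bp. A DHT peak of 3558 bp, from 3650962 to 3654519, had no untreated counterpart. At the other 2 shared places DHT peaks were slightly narrower, 901 bp against 945 bp in untreated cells and 345 bp against 425 bp in untreated cells.

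Window 63, from 6200001 to 6300000, had 22.2% covered after DHT and 10.9% in untreated cells. Its largest single addition was a DHT peak of 6650 bp, from 6225002 to 6231651, without an untreated peak. DHT peaks were wider at 3 of its 4 shared places, such as 3306 bp after DHT, from 6210652 to 6213957, against 2152 bp in untreated cells. At the fourth the DHT peak was narrower, 638 bp from 6254014 to 6254651, against 1034 bp in untreated cells. In window 42, from 4100001 to 4200000, 11.7% was covered after DHT and 1.48% in untreated cells. It held 8 DHT peaks, none overlapped by an untreated peak, and its 1 untreated peak of 1484 bp, from 4179474 to 4180957, had no DHT peak. The score ranks of the DHT peaks that carried these windows varied, with the 6650 bp peak at percentile 63.2 of its list and a 4512 bp peak of window 42, from 4111997 to 4116508, at percentile 78.2.

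Against the trend, 2 windows were less covered after DHT by more than 5 points. Window 47, from 4600001 to 4700000, had 4.86% after DHT and 13.8% in untreated cells, a difference of -8.93 points. Both libraries had a wide peak there, of 4119 bp after DHT, from 4655879 to 4659997, and of 7343 bp in untreated cells, from 4655888 to 4663230. This untreated peak is the widest of its list in the stretch, and 5 further untreated peaks of 591 to 2039 bp inward of it had no DHT counterpart. Window 52, from 5100001 to 5200000, had 6.02% after DHT and 12.8% in untreated cells, with 3 peaks against 8. It adjoins window 51, which had one of the largest positive differences. Over the 200 kb of both, from 5000001 to 5200000, 18.1% was covered after DHT and 16.9% in untreated cells, a difference of 1.20 points. With the higher-scoring 50% of each list alone, both windows turned direction, to -3.54 points in window 51 and 0.7 points in window 52. The other 5 windows lower after DHT differed by less than 1 point.

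Peaks in 19p13.3 were wider than in the rest of the genome in both libraries. Their median width was 993 bp after DHT and 962 bp in untreated cells, against 353 bp after DHT and 373 bp in untreated cells over the rest of the genome. At least 2 kb wide were 127 of the DHT peaks (22.6%) and 81 of the untreated ones (18.9%). In the rest of the genome these shares were 1.96% after DHT and 2.52% in untreated cells. The other stretches compared also had wide peaks, though less so. On the chromosome 16 end median widths were 785 bp after DHT and 855 bp in untreated cells, with 15.2% and 11.7% at least 2 kb wide. From 7 to 14 Mb on chromosome 19 the medians were 626 and 641 bp, and on the chromosome 11 end 493 and 553 bp.

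Peaks of at least 2 kb held most of the difference in covered length between the libraries. Each peak was classed by its width in its own list, so a place wider after DHT can fall into a wider class there. The ratios by class therefore do not separate wider peaks from additional ones. Peaks of at least 2 kb covered 438 kb after DHT and 240.0 kb in untreated cells, a ratio of 1.83 (1.36 to 2.45), and narrower ones 360.4 kb after DHT and 305 kb in untreated cells, a ratio of 1.18 (1.004 to 1.39). In the rest of the genome the ratio for peaks of at least 2 kb was below 1, at 0.906 (0.857 to 0.958). Of peaks at least 4 kb wide there were 36 after DHT and 10 in untreated cells, covering 184 kb after DHT and 51.4 kb in untreated cells, a ratio of 3.58 (1.75 to 7.31). Over the rest of the genome peaks of that width gave a ratio of 1.13 (0.987 to 1.296). The other chromosome ends had more of them after DHT as well, 20 against 7 in untreated cells on the first 7 Mb of chromosome 16, a ratio of covered length of 2.94 (1.24 to 6.98), and 11 against 3 on those of chromosome 11. Peaks of at least 2 kb numbered 83 after DHT and 49 in untreated cells on the chromosome 16 end, and 46 after DHT and 33 in untreated cells on the chromosome 11 end. Whether 19p13.3 differs from these ends in its wide peaks was not tested. Peaks of 0.5 to 1 kb covered nearly the same length in both libraries, 94.1 kb after DHT and 93.6 kb in untreated cells.

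**Figure D3:**
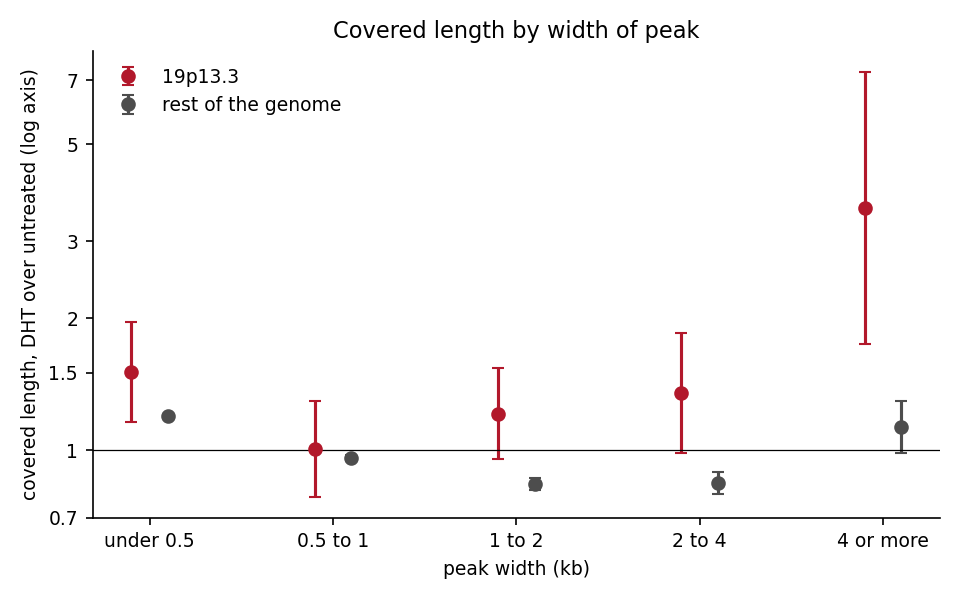
Ratio of covered length, DHT over untreated (log axis), by peak width in kb, for 19p13.3 (red) and the rest of the genome (grey), with 95% counting intervals as bars. In 19p13.3 the ratio is 3.58 for peaks of 4 kb or more and near 1 for peaks of 0.5 to 1 kb.

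At places marked in both libraries the DHT peak was more often the wider. In 19p13.3, 242 DHT peaks overlapped a single untreated peak that overlapped no other DHT peak. In 161 of these pairs the DHT peak was the wider (66.5%, exact interval 60.2% to 72.4%), whereas over all 55084 such pairs of the genome it was the wider in 36.5%. Median width in the pairs was 1480.5 bp after DHT and 1176.5 bp in untreated cells, and the median ratio was 1.20, against 0.906 in the rest of the genome. The DHT peak was at least 2-fold wider in 51 of the 242 pairs (21.1%), against 2.96% of all pairs of the genome. It was at least 2-fold narrower in 7 (2.89%), against 9.62% of all pairs. On the chromosome 16 end these numbers were 25 (10.1%) and 17 (6.88%) of 247 pairs. On the chromosome 11 end they were 21 (10.2%) and 11 (5.34%) of 206 pairs.

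Pairs of wide peaks differ from pairs of narrow ones everywhere, so the pairs were also compared at similar width. Where the mean width of the pair, on a geometric scale, was 0.5 to 1 kb, the DHT peak was the wider in 62.7% of 67 pairs, against 33.1% in the rest of the genome. At 1 to 2 kb the share was 66.7% of 84 pairs against 37.4%, and at 2 kb or more it was 73.5% of 68 pairs against 49.4%. On the first 7 Mb of chromosome 16 the share over all widths was 54.7% (48.2% to 61.0%), and on those of chromosome 11 it was 48.1% (41.1% to 55.1%). At 2 kb or more these ends had 75.7% and 80.6%, above that of 19p13.3. A difference between these ends and 19p13.3 was not tested.

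**Figure D4:**
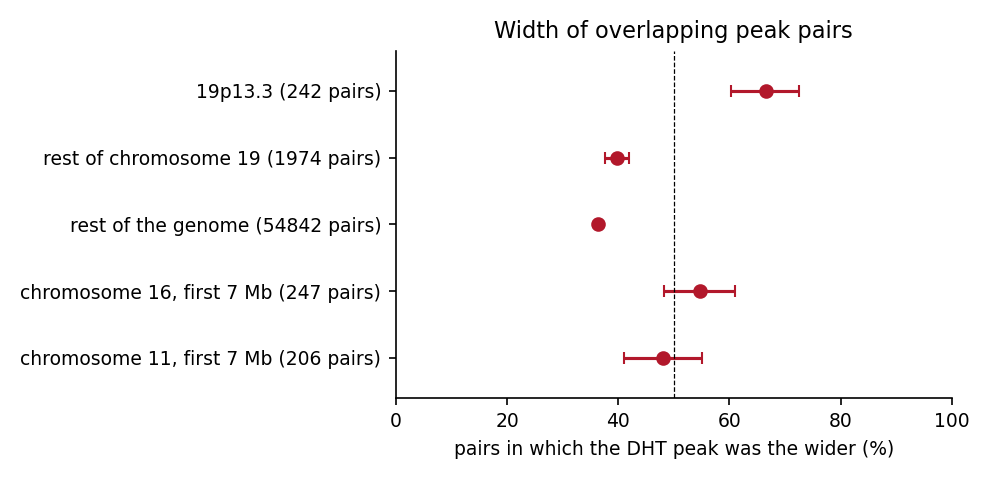
Share of 1-to-1 pairs of overlapping peaks in which the DHT peak was wider than the untreated one, in 19p13.3 and 4 other parts of the genome, with exact 95% binomial intervals as bars (hidden by the point where narrow) and a dashed line at 50%. The share is 66.5% in 19p13.3 and 36.3% in the rest of the genome.

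Much of the sequence marked in untreated cells was also marked after DHT, but less so the other way round. Sequence covered in both libraries came to 354 kb, which is 44.4% of the DHT coverage and 65.0% of the untreated coverage in 19p13.3. In the rest of the genome these shares were 48.5% of the DHT coverage and 49.6% of the untreated coverage. The chromosome 16 end had 49.0% of the DHT coverage and 67.1% of the untreated coverage, and the chromosome 11 end 50.2% and 64.0%. Both shares divide the same shared sequence, so their inequality restates the difference in covered length. DHT-only sequence came to 444 kb and untreated-only sequence to 191 kb. Of the DHT-only sequence, 37.1% lay within 1 kb of an untreated peak, 34.6% lay 1 to 5 kb away and 28.4% farther. For the untreated-only sequence these shares were 39.5%, 37.3% and 23.2%. In the rest of the genome 35.6% of the DHT-only sequence lay within 1 kb of an untreated peak, near the share in 19p13.3. Of the untreated-only sequence there, 51.1% lay within 1 kb of a DHT peak.

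Counted by peaks, 286 of the 561 DHT peaks met an untreated peak (50.98%, exact interval 46.8% to 55.2%), near the 48.5% of all DHT peaks of the genome. The share of the 428 untreated peaks that met a DHT peak was higher, with 285 of them (66.6%, 61.9% to 71.05%). Over all untreated peaks of the genome it was 52.3%, on the chromosome 16 end 69.2% and on the chromosome 11 end 59.7%. Overlap went with the score that the authors gave each peak, read here as a percentile within its own list. Among peaks in the lowest 25% of their list by score, 24.1% of the 162 DHT peaks and 49.1% of the 108 untreated peaks of 19p13.3 were overlapped. Among the highest 25% these shares were 84.9% of 146 DHT peaks and 86.0% of 107 untreated peaks. The rest of the genome had the same gradient, from 26.5% to 81.0% of the DHT peaks and from 34.8% to 76.9% of the untreated ones. Peaks without a counterpart were also narrower, with median widths of 549 bp after DHT and 584 bp in untreated cells. All 10 untreated peaks of at least 4 kb were overlapped by a DHT peak, and 30 of the 36 DHT peaks of that width by an untreated peak. In the rest of the genome this held for 92.1% of the untreated peaks of that width and 76.4% of the DHT ones.

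With all widths pooled, the peaks of 19p13.3 scored near the middle of their lists, but they ranked lower than peaks of similar width in the rest of the genome. Their median stood at percentile 47.1 of the DHT list and percentile 50.3 of the untreated list. In the top 10% of scores were 59 DHT peaks (10.5%) and 47 untreated peaks (10.98%). Wider peaks tended to score higher in 19p13.3 (Spearman rho = 0.403 over the DHT peaks and 0.383 over the untreated ones), as a description across peaks of 1 library each. Ranks within lists of different length say nothing of a difference in the mark.

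The 5 highest-scoring DHT peaks all met an untreated peak, while 2 of the 5 highest-scoring untreated peaks met no DHT peak. The highest after DHT, 1753 bp wide and at percentile 99.9 of its list, lay from 4052646 to 4054398, and an untreated peak of 1613 bp at percentile 99.4 of its own list lay at the same place. The highest in untreated cells, at percentile 99.7, lay from 1388812 to 1390019 and was wholly covered by a DHT peak. Without a DHT peak were the untreated peaks from 4035285 to 4037175, at percentile 99.6, and from 2916917 to 2918321, at percentile 99.4.

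The 5 widest peaks of each library scored anywhere from percentile 10.7 to 98.1 of their list. The widest after DHT, 7252 bp from 2227968 to 2235219, scored at percentile 54.2, and 32.8% of it was covered by an untreated peak. The next, 7072 bp from 4443242 to 4450313, was at percentile 10.7 with 27.0% covered. The most closely matched wide peak was 6639 bp after DHT, from 6415697 to 6422335, and 6709 bp in untreated cells, from 6415636 to 6422344. It was at percentile 93.2 of the DHT list and percentile 61.1 of the untreated list.

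Joining peaks of both libraries that lay at most 5 kb apart gave 346 blocks in 19p13.3, a scale closer to that of genes. Both libraries had peaks in 202 of them, DHT alone in 101 (29.2%) and untreated cells alone in 43 (12.4%). Of all blocks of the genome 26.3% had DHT peaks alone, near the share in 19p13.3, and 20.7% untreated peaks alone. Median block length was 2523 bp, against 995 bp in the rest of the genome. At least 10 kb long were 50 of the 346 blocks, against 9118 of 66768 elsewhere, and 4 reached 30 kb, against 1263 elsewhere. The longest, 47264 bp from 296642 to 343905, held 18451 bp of DHT peaks and 11460 bp of untreated peaks. The next, 41030 bp from 5205137 to 5246166, held 17009 bp after DHT and 13606 bp in untreated cells. The other 3 of the 5 longest began at 6246396, 4422376 and 863162 and were 1.36 to 1.41 times as covered after DHT.

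Among the 54 blocks in which peaks of either library summed to 5 kb or more, 46 were more covered after DHT, against 49.1% of all 2980 such blocks of the genome. Past 4-fold, 7 of the 54 had more coverage after DHT (13.0%), against 2.45% of all such blocks of the genome. Past 4-fold the other way were 0 of the 54, against 0.638% of all such blocks. The largest of the 7 by DHT coverage, from 5003867 to 5021602, held 9628 bp after DHT and 1978 bp in untreated cells. That from 3957396 to 3968511 held 9516 bp after DHT, in 2 peaks, and 2205 bp in untreated cells. That from 4701611 to 4711611 held 5001 bp after DHT and 1212 bp in untreated cells.

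No untreated peak lay in the other 4 of these blocks. They were the block from 1408750 to 1420234, with 8375 bp covered after DHT, the single peak from 6225002 to 6231651, the block from 4111997 to 4121523, with 5831 bp, and that from 644031 to 654431, with 5578 bp. Their DHT peaks ran from percentile 0.698 to 78.2 of the list. In the block from 644031 to 654431 both DHT peaks scored low, at percentiles 4.66 and 18.5.

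The inner border at 7 Mb fell in thinly marked sequence. The last peak inside it was 270 bp wide after DHT, from 6924720 to 6924989, and 249 bp wide in untreated cells, from 6986441 to 6986689. The first outside it was 159 bp wide after DHT, from 7067263 to 7067421, and 555 bp wide in untreated cells, from 7011249 to 7011803.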

How the data were processed

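The authors deposited 1 peak list per ChIP library, giving the position, name and score of each peak. Peaks were called with MACS in each library separately, per the peak names, on hg19, per the file names. Caller version, settings, control, aligner and depth: not given in the sources used here. The score in the deposited lists runs from 50 to 3100, its scale is not stated, and it was used only to rank peaks within a list.

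Peaks on chromosomes 1 to 22, X and Y entered, and positions are printed counting from 1. Covered length was clipped to the first 7 Mb of chromosome 19 and counted in windows of 100 kb, with Python 3.11.15, NumPy 2.4.6, SciPy 1.17.1 and pandas 2.3.3. Overlap meant at least 1 bp, and counts equalled those of bedtools 2.31.1. Intervals for ratios of covered length sum squared peak widths as a Poisson variance, and those for peak numbers and shares are exact binomial ones. The functions were tested on simulated data, where 9 of 9 checks gave the known answer. The ratio interval held the true ratio in 93.6% of 1000 draws. Those draws had independent peaks and independent lists, as the interval itself assumes. They check the formula and cannot show how the interval performs where neighbouring peaks or the 2 lists go together.

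The stretch, the gene lists and the rules were chosen with earlier results of these data known. By rule, the text names the 5 most covered windows of each library, the 5 largest differences each way, windows past 10 points, the 5 longest blocks, blocks past 4-fold, and the 5 widest and 5 highest-scoring peaks. Of these only the instructive ones are described. Width classes, pairs and coverage classes were chosen after the data were seen. Gene bodies were planned but not analysed, for lack of an hg19 annotation here, and no sequence is printed for the same reason.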

Additional observations from a re-analysis of the deposited data

How the results depend on the processing

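The covered length ratio, 1.46, ranged from 1.43 to 1.51 when the lists were cut to their higher-scoring 50%, cut to equal covered length, joined at 1 kb or 5 kb, or limited to the first 5 Mb. The peak number ratio ranged from 1.16 to 1.25, the ratio against the rest of the genome from 1.29 to 1.498, that of peaks of at least 2 kb from 1.55 to 2.07 and the share of pairs wider after DHT from 66.8% to 71.04%. Joined at 5 kb, the interval of the number ratio included 1 (0.986 to 1.37). In the higher-scoring 50%, 49 windows were higher after DHT and 14 lower, against 61 and 7, and 13 of the 70 turned direction, as 6 did joined at 5 kb, 1 at 1 kb and 0 at equal covered length. Overlap of DHT and untreated peaks became 59.9% and 72.4% joined at 5 kb and 32.8% and 43.0% with 50% of both peaks covered, and that of DHT peaks 40.1% with 50% of the peak covered. Windows past 10 points, 3 and 0, became 17 and 2 joined at 5 kb, 6 upward shifted by 50 kb, 25 and 2 at 5 points, and 0 in windows of 1 Mb. Windows past 1.5-fold, 20 and 2, numbered 13 and 1 with the higher-scoring 50% and 7 upward at 2-fold, with 1 downward shifted by 50 kb or in the first 5 Mb. Blocks at 2-fold were 17 and 3. Median score percentiles were 77.1 and 74.7 in the higher-scoring 50%, by construction. Among the 15 named windows, run singly, the difference turned direction in the higher-scoring 50% for window 45 (-2.25 points), 51 (-3.54) and 52 (0.7), joined at 5 kb for 20 (3.74) and 29 (1.54), and joined at 1 kb for 29 (1.41). The cause was not tested. No paired analysis was possible because each condition has 1 library. Read depth is not given, so a place without a peak is not shown to lack the mark.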
